A study of Mus musculus with 18 samples.

Results

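The extracellular matrix and the contractile wall of the seminiferous tubule were followed through 40 genes in testis RNA. The genes were taken by symbol from the table of 20979 genes: 5 fibrillar collagens, 7 network and beaded-filament collagens, 5 basement membrane glycoproteins, 4 small proteoglycans, 4 other matrix glycoproteins, 6 genes of collagen maturation and turnover, and 9 contractile genes of smooth muscle. The group named network and beaded-filament collagens also holds Col15a1 and Col18a1, collagens at basement membranes that are of neither kind. All 40 symbols were found, and 38 reached the level needed for testing, which was 1 RPKM in at least 3 libraries. RPKM is a read-based level scaled to gene length and library size. Col5a2, a minor fibrillar chain, and Lox, an enzyme that crosslinks collagen, stayed below it, at 0.250 to 1.06 and 0.230 to 0.680 RPKM.

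The study set out to follow the testis under a high fat diet and STZ (streptozotocin, which kills insulin-producing cells) and the effect of transferred microbiota on it. Testes of ICR mice, an outbred stock, were sampled at 10 weeks of age, 3 libraries in each of 6 groups. HFD_STZ_AOS_FMT mice had the diet, STZ and FMT (fecal microbiota transplantation) labelled with AOS at 10 mg/kg, and HFD_STZ_control_FMT mice had the diet, STZ and FMT labelled as control. HFD_STZ_AOS mice had the diet, STZ and AOS at 10 mg/kg, HFD_STZ mice the diet and STZ, AOS mice AOS at 10 mg/kg alone, and control mice none of these. The labels use AOS without spelling it out, and the donors of the microbiota are not described further. All groups share strain, age and tissue, and nothing in the labels says that the libraries of a group came from separate animals, so each p-value reflects the spread among these samples only, and that may be technical.

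Seminiferous tubules are wrapped in flat, smooth-muscle-like peritubular myoid cells, whose contractions move fluid and released sperm towards the rete testis. These cells and the Sertoli cells inside the tubule lay down the basement membrane between them, a sheet of type IV collagen and laminin tied together by nidogens and perlecan. Outside it lie fibrillar collagens I, III and V, beaded filaments of collagen VI, and the small proteoglycans that bind to collagen fibrils. Matrix metalloproteinases cut this matrix and the TIMP proteins inhibit them.

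Many smooth muscle genes carry CArG boxes in their promoters, short A- and T-rich elements bound by serum response factor, and the promoters of 2 contractile genes are shown because they held such boxes. Both run 5′ to 3′ over the 250 bases before the annotated start, from RefSeq on GRCm38.p6, with the boxes in capitals. Acta2 encodes smooth muscle alpha-actin (chr19:34255374-34255623, minus strand), and Myl9 a regulatory light chain of smooth muscle myosin (chr2:156775214-156775463, plus strand).
Acta2: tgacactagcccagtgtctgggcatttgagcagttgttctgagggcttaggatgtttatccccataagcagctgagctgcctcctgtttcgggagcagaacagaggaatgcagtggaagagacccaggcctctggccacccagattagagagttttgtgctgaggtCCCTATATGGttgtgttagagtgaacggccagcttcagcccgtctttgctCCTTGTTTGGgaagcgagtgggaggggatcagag
Myl9: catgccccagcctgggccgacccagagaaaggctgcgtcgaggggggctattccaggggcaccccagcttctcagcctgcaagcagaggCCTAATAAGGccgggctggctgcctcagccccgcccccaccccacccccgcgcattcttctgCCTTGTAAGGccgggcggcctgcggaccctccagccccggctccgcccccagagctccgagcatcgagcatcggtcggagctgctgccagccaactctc
The boxes begin 84 and 34 bases before the start of Acta2, and 161 and 99 bases before that of Myl9. The search took the CArG box, whose reverse complement is again a CArG box, and allowed 1 C or G in its A- and T-rich centre. Only the first box of Myl9 has no such departure. Promoters of 28 of the 40 genes were in the table, 31 promoters in all. A box was found in 2 of 6 contractile promoters (33.3%), in 3 of 25 promoters of the other genes (12%; Timp3, Col1a2 and Col6a3) and in 8.59% of all 32851 promoters. Without a departure it was found in 1 of 6 contractile promoters and in 1.47% of all. A match is a string of letters in this window and not a shown binding site.

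A second pair of starts is shown for its layout, whose part in the levels of the genes was not tested. Col4a1 and Col4a2, the main chains of type IV collagen, lie head to head on chromosome 8, with annotated RefSeq starts at 11312826 on the minus strand and 11312805 on the plus strand, 21 bases apart. Their transcripts overlap there, and reads within the overlap could not be assigned to one of them without strand. These are the 22 bases from one start to the other, on the strand of Col4a2 (chr8:11312805-11312826, GRCm38.p6).
Overlap: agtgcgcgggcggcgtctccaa

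The libraries were of similar size, with RPKM sums of 588081 to 646822 and 13022 to 13490 genes at 1 RPKM or more. The spacing of low values pointed to roughly 11750000 to 13600000 reads per library, an estimate with weak support. Smooth muscle markers were detected in every library: Acta2 was at 18.7 RPKM or more, Myh11 (smooth muscle myosin heavy chain) at 3.91 or more and Cnn1 (calponin) at 2.16 or more. RNA of neighbouring tissues differed between libraries. Crisp1, a gene of the epididymis, was above 14.1 RPKM (10 times its median) in 5 libraries, namely HFD_STZ_AOS_FMT replicate 3, HFD_STZ_control_FMT replicates 2 and 3, HFD_STZ_AOS replicate 3 and control replicate 3. In the other 13 it was at 11.5 RPKM or less. Of the other epididymis markers, Cd52 was at 20.25 RPKM or more in these 5 libraries and at 11.1 or less in the rest. Lcn9 and Defb20 were instead highest in HFD_STZ_AOS_FMT replicate 1, at 5.69 and 17.4 RPKM, where Crisp1 was at 0.99. High Crisp1 thus does not stand for all epididymis markers. The 5 adipocyte markers, all found, summed to 46.2 to 115 RPKM in HFD_STZ_AOS_FMT, 38.0 to 128 in HFD_STZ_control_FMT, 16.9 to 93.9 in HFD_STZ_AOS, 13.8 to 24.1 in HFD_STZ, 15.6 to 27.8 in AOS and 14.1 to 24.8 in control. HFD_STZ_AOS replicate 3 alone gave the 93.9 of its group.

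Levels spanned a wide range across the 40 genes. Actg2, which encodes smooth muscle gamma-actin, had the highest mean, 250.4 RPKM over the 18 libraries, the 425th highest of the 20979 genes. It was followed by Sparc at 119, Timp2 at 59.6, Dcn at 42.8 and Myl9 at 40.8 RPKM. Fibrillar collagens, the bulk protein of connective tissue, were modest in comparison: Col1a2 averaged 8.69, Col3a1 8.28, Col5a1 3.94 and Col1a1 3.66 RPKM. Of the basement membrane glycoproteins, Nid1 (nidogen 1) averaged 4.64 RPKM, Lamb1 and Lamc1 (laminin chains) 2.49 and 1.86, Hspg2 (perlecan) 2.10 and Nid2 (nidogen 2) 1.91. RPKM is scaled to gene length, so these levels can be set side by side between genes.

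**Figure D1:**
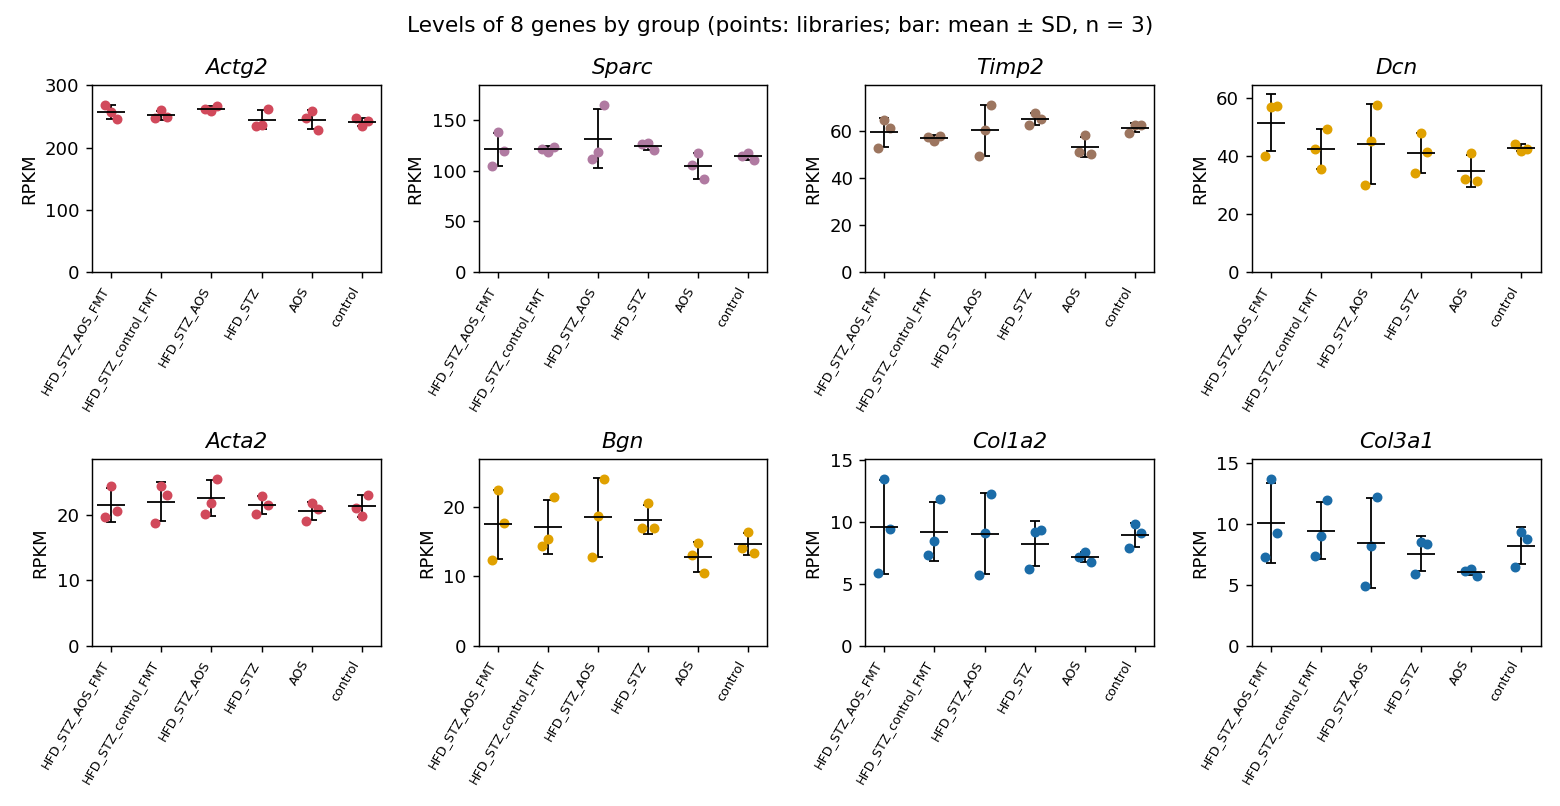
RPKM (vertical axes, from 0) of 8 genes in the 6 groups; points are libraries and bars the mean ± SD (n = 3). Actg2 stayed within 228 to 268 RPKM, while Col1a2 and Col3a1 spread widely within HFD_STZ_AOS_FMT, HFD_STZ_control_FMT and HFD_STZ_AOS.

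Actg2 stood apart from the other contractile genes. It measured 268, 257 and 246 RPKM in HFD_STZ_AOS_FMT, 247, 260.4 and 248 in HFD_STZ_control_FMT, 262, 259 and 266 in HFD_STZ_AOS, 235, 236 and 262 in HFD_STZ, 247, 259 and 228 in AOS and 248, 235 and 242 in control. All groups but HFD_STZ_AOS overlapped with control, and the highest library was 1.18 times the lowest, the smallest ratio of the 40 genes. Acta2, the alpha-actin that marks myoid cells, averaged 21.5 ± 2.6 RPKM in HFD_STZ_AOS_FMT, 22.0 ± 2.9 in HFD_STZ_control_FMT, 22.5 ± 2.7 in HFD_STZ_AOS, 21.5 ± 1.4 in HFD_STZ, 20.6 ± 1.4 in AOS and 21.3 ± 1.6 in control (SD, n = 3 each). All groups overlapped for Acta2. It was at a median of 0.0846 times Actg2 within a library. As background, Actg2 transcripts have also been described in post-meiotic male germ cells of mice. The coding sequences of both actins are 84.2% identical in DNA and 99.2% in protein, and the longest identical run is 29 bases (GENCODE vM21 transcripts). How the authors' counting treated reads that fit both was not stated.

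The other contractile genes were lower. Myl9 measured 41.7, 47.6 and 40.5 RPKM in HFD_STZ_AOS_FMT, 42.7, 39.9 and 39.4 in HFD_STZ_control_FMT, 41.9, 42.5 and 45.6 in HFD_STZ_AOS, 35.8, 41.0 and 39.9 in HFD_STZ, 38.6, 40.5 and 40.1 in AOS and 42.7, 35.1 and 39.5 in control, and each group overlapped with control. Mylk, the kinase of that light chain, averaged 8.53 RPKM, Tagln (transgelin) 8.11, Myh11 5.41, Tpm2 (a tropomyosin) 5.25, Cnn1 2.97 and Des (desmin, an intermediate filament of muscle) 1.85. Over the libraries the highest value was 1.36 to 2.01 times the lowest for these 7 genes and Acta2.

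Network and beaded-filament collagens averaged 1.05 to 6.30 RPKM over the libraries. Col15a1, which sits between basement membranes and the collagen fibrils around them, measured 5.77, 6.75 and 5.91 RPKM in HFD_STZ_AOS_FMT, 6.11, 5.63 and 7.54 in HFD_STZ_control_FMT, 5.94, 6.77 and 7.45 in HFD_STZ_AOS, 5.97, 7.33 and 6.23 in HFD_STZ, 6.60, 6.22 and 5.65 in AOS and 5.78, 5.53 and 6.26 in control. All groups overlapped, and the libraries stayed within 5.53 to 7.54 RPKM. Col6a1, a chain of the beaded filaments, measured 3.91, 7.11 and 5.53 RPKM in HFD_STZ_AOS_FMT, 5.05, 4.99 and 7.46 in HFD_STZ_control_FMT, 3.59, 5.22 and 7.53 in HFD_STZ_AOS, 4.77, 5.23 and 5.20 in HFD_STZ, 4.43, 5.25 and 4.10 in AOS and 4.69, 5.63 and 6.33 in control. The groups overlapped here as well, with the extremes both in HFD_STZ_AOS. Of the others, Col6a2 averaged 3.80, Col4a1 3.78, Col4a2 3.66, Col18a1 3.19 and Col6a3 1.05 RPKM over the 18 libraries.

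Of the glycoproteins of the basement membrane, Nid1, which links laminin to type IV collagen, measured 3.70, 5.47 and 5.02 RPKM in HFD_STZ_AOS_FMT, 4.60, 3.93 and 5.69 in HFD_STZ_control_FMT, 4.05, 4.72 and 4.39 in HFD_STZ_AOS, 4.33, 5.44 and 4.52 in HFD_STZ, 4.29, 4.28 and 4.42 in AOS and 4.51, 4.76 and 5.37 in control. HFD_STZ_AOS_FMT replicate 1 was the lowest and HFD_STZ_control_FMT replicate 3 the highest, and only the AOS libraries lay wholly below control. Lamb1, the beta-1 laminin chain, measured 1.69, 3.02 and 2.45 RPKM in HFD_STZ_AOS_FMT, 2.23, 2.26 and 2.67 in HFD_STZ_control_FMT, 2.33, 2.98 and 3.12 in HFD_STZ_AOS, 2.74, 2.66 and 2.70 in HFD_STZ, 2.08, 2.37 and 2.21 in AOS and 2.24, 2.35 and 2.72 in control. HFD_STZ and control overlapped at 2.66 to 2.72 RPKM, and AOS libraries lay within or below the control range.

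Among the soluble and fibril-binding components, Sparc, a collagen-binding glycoprotein that Sertoli and Leydig cells also make, measured 105, 138 and 119 RPKM in HFD_STZ_AOS_FMT, 121, 118 and 124 in HFD_STZ_control_FMT, 112, 118 and 165 in HFD_STZ_AOS, 126, 127 and 119.8 in HFD_STZ, 105, 118 and 91.9 in AOS and 114, 117 and 110.4 in control. HFD_STZ lay above control in all 3 libraries, and HFD_STZ_AOS replicate 3 was the highest of all 18. Dcn (decorin), a proteoglycan that regulates fibril assembly, measured 40.1, 56.9 and 57.4 RPKM in HFD_STZ_AOS_FMT, 42.4, 35.4 and 49.2 in HFD_STZ_control_FMT, 29.9, 45.0 and 57.6 in HFD_STZ_AOS, 34.0, 47.9 and 41.3 in HFD_STZ, 32.1, 41.1 and 31.3 in AOS and 44.2, 41.8 and 42.5 in control. The AOS libraries were all below control for Dcn, and HFD_STZ_AOS held both the lowest and the highest value. Bgn (biglycan), its close relative, measured 12.4, 22.4 and 17.6 RPKM in HFD_STZ_AOS_FMT, 14.3, 15.3 and 21.4 in HFD_STZ_control_FMT, 12.7, 18.6 and 24.0 in HFD_STZ_AOS, 16.9, 20.5 and 16.9 in HFD_STZ, 13.1, 14.8 and 10.5 in AOS and 14.1, 16.4 and 13.4 in control. All 3 HFD_STZ libraries were above control, and HFD_STZ_AOS replicate 3 was again the highest.

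Postn (periostin), a matricellular protein of fibrous tissue, measured 5.80, 6.78 and 4.97 RPKM in HFD_STZ_AOS_FMT, 5.15, 4.83 and 5.17 in HFD_STZ_control_FMT, 6.73, 3.99 and 4.14 in HFD_STZ_AOS, 8.41, 5.69 and 3.80 in HFD_STZ, 5.18, 4.10 and 2.67 in AOS and 5.74, 4.64 and 4.53 in control. HFD_STZ alone ran from 3.80 to 8.41 RPKM, and every group overlapped with control. Of the remaining proteoglycans and glycoproteins, Ogn (osteoglycin) averaged 9.04 RPKM, Lum (lumican) 2.62, Fn1 (fibronectin) 3.40 and Fbn1 (fibrillin 1) 1.14.

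The TIMP inhibitors had higher levels than Mmp2, the one metalloproteinase among the 40 genes. Timp2 averaged 59.6 RPKM, Timp3 8.04 and Timp1 2.62, against 1.74 for Mmp2. Timp2 measured 52.8, 64.7 and 61.4 RPKM in HFD_STZ_AOS_FMT, 57.7, 55.7 and 57.8 in HFD_STZ_control_FMT, 49.3, 60.8 and 71.3 in HFD_STZ_AOS, 62.8, 68.0 and 65.3 in HFD_STZ, 51.1, 58.3 and 50.4 in AOS and 59.5, 62.7 and 62.5 in control. The AOS libraries were below control and those of HFD_STZ above it. Timp3, which stays bound to the matrix, measured 6.73, 8.96 and 8.57 RPKM in HFD_STZ_AOS_FMT, 7.74, 7.67 and 8.63 in HFD_STZ_control_FMT, 7.02, 7.72 and 9.70 in HFD_STZ_AOS, 9.30, 9.19 and 9.01 in HFD_STZ, 6.79, 7.06 and 6.87 in AOS and 7.43, 8.20 and 8.21 in control. It showed the same order, with all 3 HFD_STZ libraries above all 3 of control and these above all 3 of AOS. Timp1 had the widest range of the 40 genes, with a highest value 5.31 times its lowest, and HFD_STZ_AOS replicate 3 at 8.23 RPKM stood far above the next library, HFD_STZ replicate 1 at 3.95. Serpinh1, the collagen chaperone of the endoplasmic reticulum, averaged 5.27 RPKM.

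For 3 pairs of collagen genes whose products assemble into one molecule, both genes varied together from library to library. No pair of collagen genes from different molecules was examined, so nothing particular to these pairs is shown. Across the 18 libraries Col1a1 and Col1a2 had a Pearson r of 0.937 and a Spearman rho of 0.876, Col4a1 and Col4a2 0.883 and 0.771, and Col6a1 and Col6a2 0.945 and 0.919. In two-sided permutation tests with 100000 resamples, adjusted over the 5 pairs examined, p was 1.67e-05 for each of these r, which rests on the smallest p the resamples can give (1e-05). For rho the adjusted permutation p was 5e-05, 0.00035 and 5e-05. Without the 2 libraries farthest from the median of the first gene, r was 0.898, 0.796 and 0.909, and with group means removed it was 0.938, 0.882 and 0.962. Type I collagen contains more alpha-1 than alpha-2 chains, whereas the Col1a1 level was 0.336 to 0.508 times that of Col1a2. Col4a1 was 0.804 to 1.20 times Col4a2, and Col6a1 1.21 to 1.69 times Col6a2.

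Only 2 pairs of contractile genes were examined, both with Acta2. Acta2 and Myh11 had r = 0.533 and rho = 0.548 (adjusted permutation p of 0.0274 and 0.0239), and r was 0.381 without the 2 libraries farthest from the median of Acta2, so part of it rests on those. Acta2 and Actg2 had r = 0.282 and rho = 0.257 (adjusted permutation p of 0.254 and 0.303), and r was 0.087 without those 2 libraries. The adjusted p of that pair did not pass, so no relation was shown at 18 libraries.

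**Figure D2:**
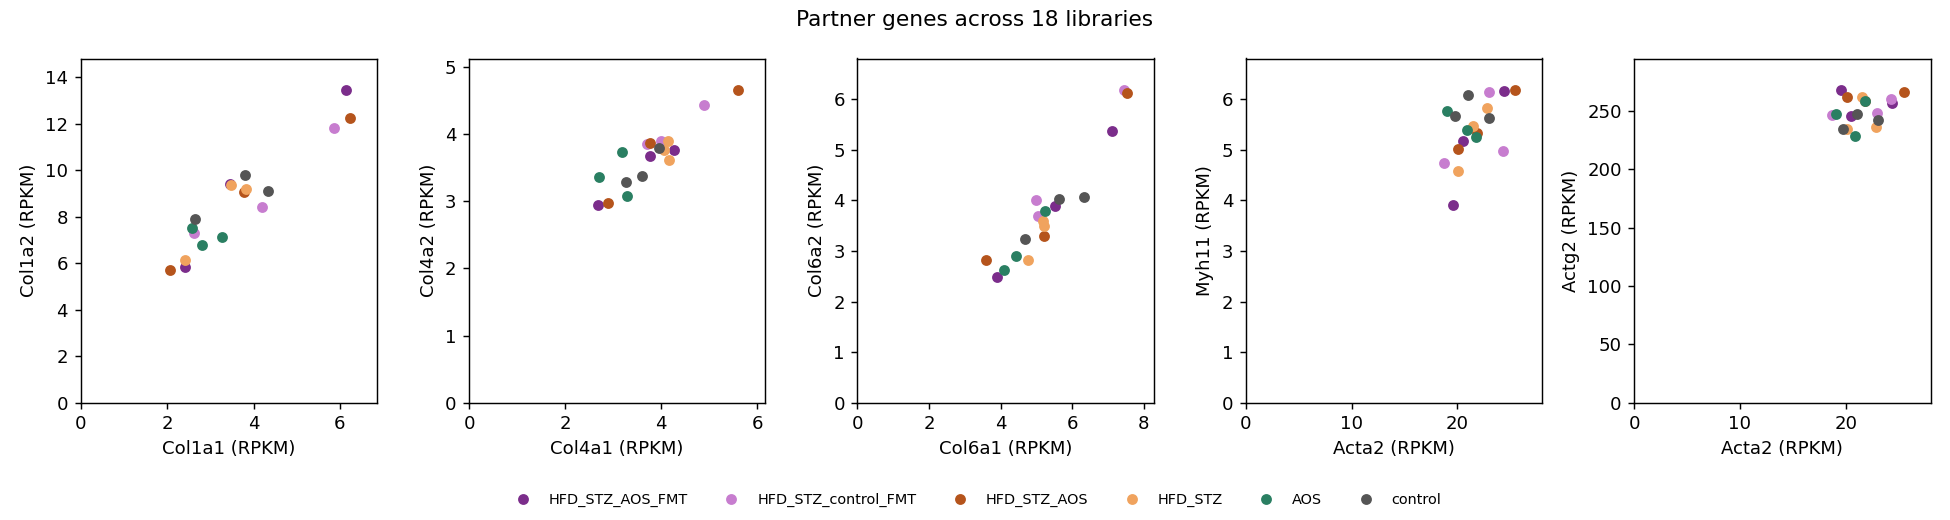
RPKM of the 2 genes of each of 5 pairs (horizontal and vertical axes, from 0); each point is 1 of 18 libraries, coloured by group. The 3 collagen pairs lie along a line, with r of 0.883 to 0.945, and Acta2 with Actg2 does not, with r of 0.282.

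With 6 groups of 3 libraries, most variance lies within groups even where the groups do not differ. The share within groups was therefore read only against that of all tested genes. For the 38 tested genes the median share of variance within groups, on the log2(RPKM + 1) scale, was 73.7%, against 60.5% over all 13874 tested genes. Their median coefficient of variation over the libraries was 16.7%, against 9.49%. Fibrillar collagens were the extreme, with medians of 87.7% and 27.1%, and contractile genes varied least, with a median coefficient of 11.4%.

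The same libraries were high or low for many genes at once. HFD_STZ_AOS replicate 3 had the highest value of all 18 libraries for 23 of the 40 genes, while HFD_STZ_AOS replicate 1 had the lowest for 12. Within HFD_STZ_AOS_FMT, replicate 2 was highest for 36 of 40 and replicate 1 lowest for 36 of 40. Within HFD_STZ_control_FMT, replicate 3 was highest for 32 of 40. These counts were not made over all tested genes, so they cannot tell a feature of this set from one of the whole library. HFD_STZ_AOS replicate 3 also had the most genes at 1 RPKM or more, 13490. Col1a2 measured 5.85, 13.5 and 9.42 RPKM in HFD_STZ_AOS_FMT, 7.31, 8.43 and 11.8 in HFD_STZ_control_FMT, 5.73, 9.09 and 12.3 in HFD_STZ_AOS, 6.16, 9.20 and 9.35 in HFD_STZ, 7.12, 7.53 and 6.77 in AOS and 7.89, 9.81 and 9.12 in control. Col3a1 measured 7.30, 13.7 and 9.20 RPKM in HFD_STZ_AOS_FMT, 7.39, 8.95 and 11.9 in HFD_STZ_control_FMT, 4.86, 8.13 and 12.2 in HFD_STZ_AOS, 5.86, 8.47 and 8.33 in HFD_STZ, 6.16, 6.25 and 5.74 in AOS and 6.49, 9.34 and 8.73 in control. The lowest and the highest Col3a1 of HFD_STZ_AOS differed by more than all AOS and control libraries did. Of the other cell types, the 5 endothelial markers summed to 7.53 RPKM in HFD_STZ_AOS replicate 3 and 5.20 in replicate 1. In the same replicates 3 and 1 the adipocyte markers summed to 93.9 and 16.9 RPKM, and the 9 epididymis markers to 296 and 13.3. Of the 296, Crisp1 gave 157 and Cd52 131. HFD_STZ_AOS_FMT replicate 2, high in collagens, had an adipocyte sum of 62.2 RPKM, below the 115 of replicate 3, and control replicate 3 had an epididymis sum of 299 RPKM with a Col3a1 of 8.73. The part of neighbouring tissue in these library differences was not tested. In bulk tissue, fewer cells of a type and less RNA per cell cannot be told apart.

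**Figure D3:**
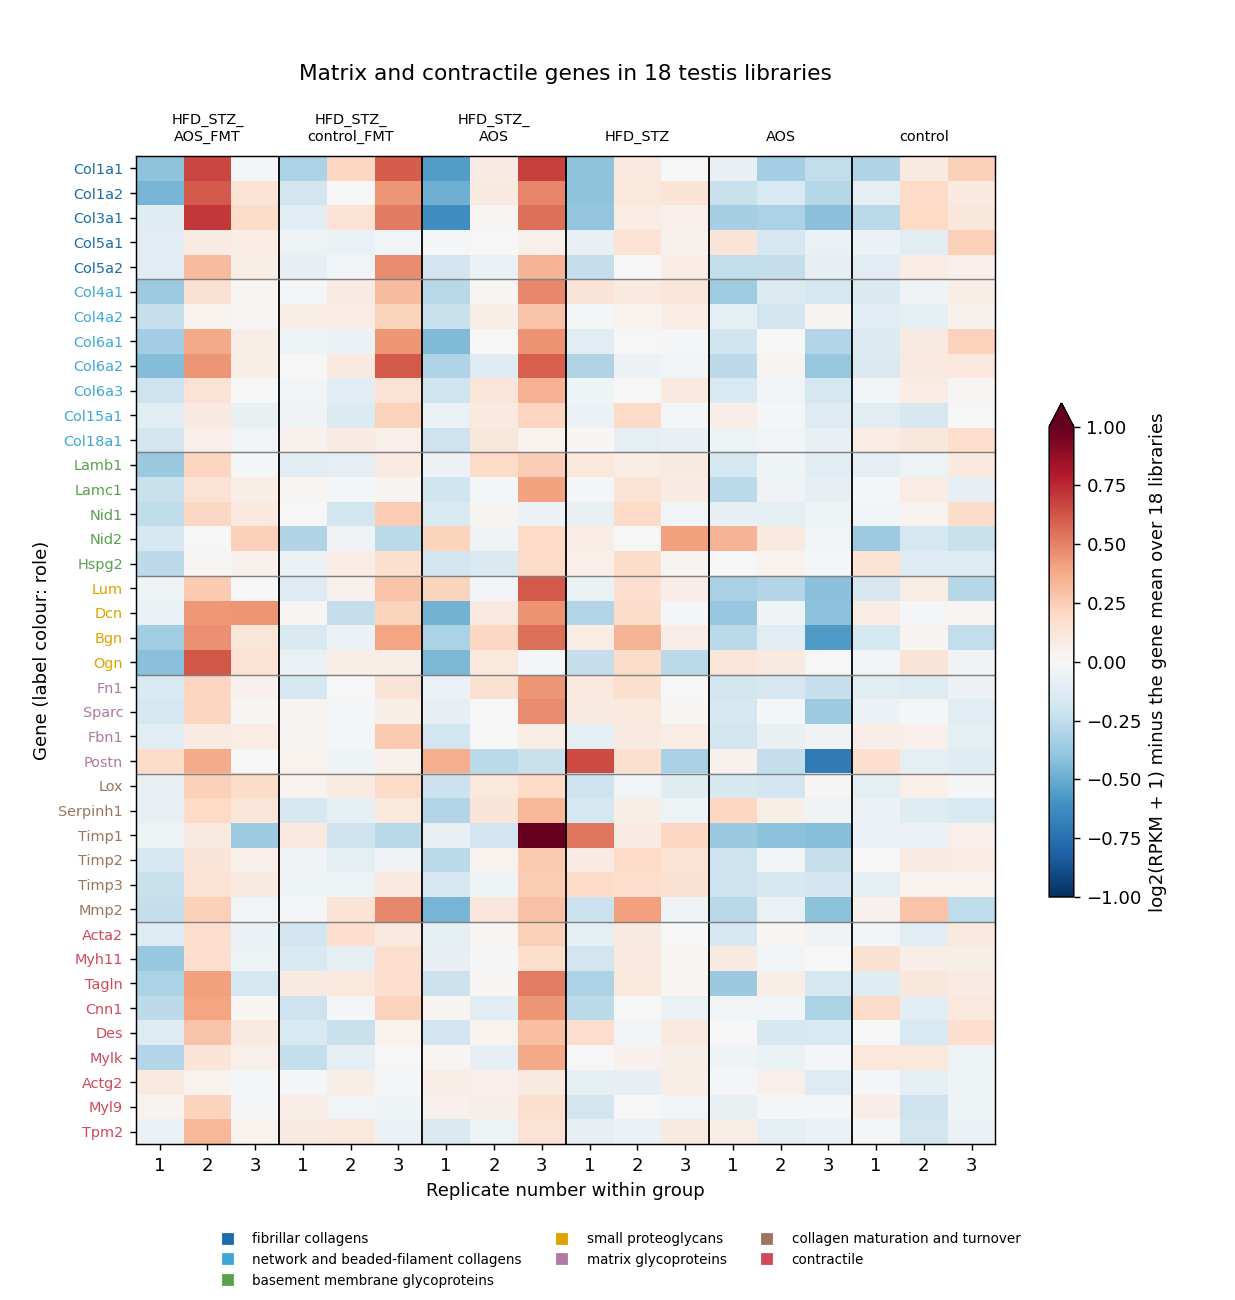
log2(RPKM + 1) minus the gene's mean over 18 libraries (colour, shown up to 1 in either direction, which only Timp1 in HFD_STZ_AOS replicate 3 exceeds), for 40 genes in rows and the replicates of 6 groups in columns. HFD_STZ_AOS replicate 3 has the highest value of the 18 libraries for 23 of 40 genes, a count not made over all tested genes.

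Diet and STZ together were read over 12 libraries, as the mean of HFD_STZ and HFD_STZ_AOS minus the mean of AOS and control. Of the 38 matrix and contractile genes tested, 34 stood on the higher side with the diet and STZ, and the greatest differences were those of Timp1, Lum, Bgn and Fn1. In limma's test over all genes 0 of the 38 passed an adjusted p of 0.05, where 2.85% of all tested genes passed. An unadjusted p under 0.05 was found for 7 of 38, near the 18.8% of all tested genes, and all 7 were higher, where 14.3% of all tested genes had such a p and were higher. The difference was above 0 for 34 of 38, against 64.7% of all genes (33 of 38 and 51.5% after median-ratio scaling of the libraries), with a median of 0.10 on the log2(RPKM + 1) scale against 0.03. That scale understates the change of low genes.

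Lum, the proteoglycan lumican (chromosome 10, 97565128 to 97572703 in GRCm38/mm10), measured 3.16, 2.50 and 4.46 RPKM in HFD_STZ_AOS and 2.41, 3.01 and 2.72 in HFD_STZ, against 1.85, 1.90 and 1.67 in AOS and 2.18, 2.76 and 1.93 in control. Control replicate 2 overlapped with the libraries of the diet and STZ, and the AOS libraries lay below all of them. The log2 difference was 0.40 ± 0.10 (SE), with an adjusted p of 0.0534 by limma, the smallest of the 38 genes. Fn1, fibronectin (chromosome 1, 71585520 to 71653200), measured 3.20, 3.86 and 4.93 RPKM in HFD_STZ_AOS and 3.69, 3.89 and 3.39 in HFD_STZ, against 2.85, 2.88 and 2.72 in AOS and 3.07, 3.00 and 3.19 in control. Its 6 libraries with the diet and STZ all exceeded the 6 without, by as little as 3.20 against 3.19 RPKM. It was the only one of the 38 genes to do so, where 1.61% of all tested genes did and 1.85% did not overlap in either direction, with a difference of 0.28 ± 0.08 and an adjusted p of 0.0733. Timp3 ran from 7.02 to 9.70 RPKM with a median of 9.10 in the 6 libraries of HFD_STZ and HFD_STZ_AOS, against 6.79 to 8.21 with a median of 7.25 in the 6 of AOS and control. The 6 and 6 libraries overlapped, with a difference of 0.19 ± 0.07 and an adjusted p of 0.146.

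The other 4 genes with an unadjusted p under 0.05 were Timp1, Sparc, Bgn and Nid2. Timp1, whose difference of 0.54 ± 0.21 was the greatest of the 38, ran from 2.00 to 8.23 RPKM with a median of 2.81 in the 6 libraries of HFD_STZ and HFD_STZ_AOS, against 1.55 to 2.56 with a median of 1.97 in the 6 of AOS and control. With HFD_STZ and HFD_STZ_AOS set against AOS and control in the same way, Bgn stood at 12.7 to 24.0 RPKM (median 17.8), against 10.5 to 16.4 (median 13.8), Sparc at 112 to 165 RPKM (median 123), against 91.9 to 118 (median 112) and Nid2 at 1.80 to 2.83 RPKM (median 2.16), against 1.24 to 2.64 (median 1.69). The 6 and 6 libraries overlapped for each of these 4 genes, and their adjusted p in limma's test was 0.16 to 0.265. For Nid2 the mean of HFD_STZ_AOS was 2.15 RPKM and that of AOS 2.18, so its difference came from HFD_STZ against control.

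By role, all 4 fibrillar collagens, all 4 matrix glycoproteins and all 5 genes of collagen maturation and turnover had differences above 0, with medians of 0.08, 0.22 and 0.13. So did 6 of 7 network and beaded-filament collagens (median 0.10), 4 of 5 basement membrane glycoproteins (0.13), 3 of 4 small proteoglycans (0.24) and 8 of 9 contractile genes (0.06). The 4 genes below 0 were Ogn (-0.16), Col18a1 (-0.07), Myh11 (-0.06) and Nid1 (-0.01). The contractile genes lay within -0.06 to 0.11.

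The main effect joins 2 comparisons. In HFD_STZ against control, 23 of 38 genes were above 0, against 59.5% of all tested genes, with a median of 0.02 for both. In the other, HFD_STZ_AOS against AOS, AOS had the lowest mean of the 6 groups for 25 of the 38. That comparison was not tested by itself. The lean of the set in the main effect also depended largely on HFD_STZ_AOS replicate 3. Without HFD_STZ_AOS replicate 3 the difference was above 0 for 23 of 38 genes, where it was for 62.6% of all tested genes, and the median was 0.03, beside 0.02 over all genes. Without the 5 libraries high in Crisp1 these were 24 of 38, against 62.8%, and 0.03, beside 0.03. In both cases the set stood about where all genes did, but HFD_STZ_AOS replicate 3 was left out in both. The only other library of those 5 in this contrast was control replicate 3. Without it alone the difference was above 0 for 35 of 38 genes, with a median of 0.10. Without HFD_STZ_AOS replicate 1 they were 35 of 38 and 0.17, and without HFD_STZ replicate 2 they were 33 of 38 and 0.06. The adjusted p of Lum was 0.016 without HFD_STZ_AOS replicate 2, and that of Fn1 was 0.0368 without HFD_STZ_AOS replicate 1, each then the 1 gene of the set past the threshold. Blood cell markers, 4 genes, summed to 154 to 269 RPKM in the 6 libraries with the diet and STZ and 89.0 to 174 in the 6 without, and their part in the result was not tested.

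**Figure D4:**
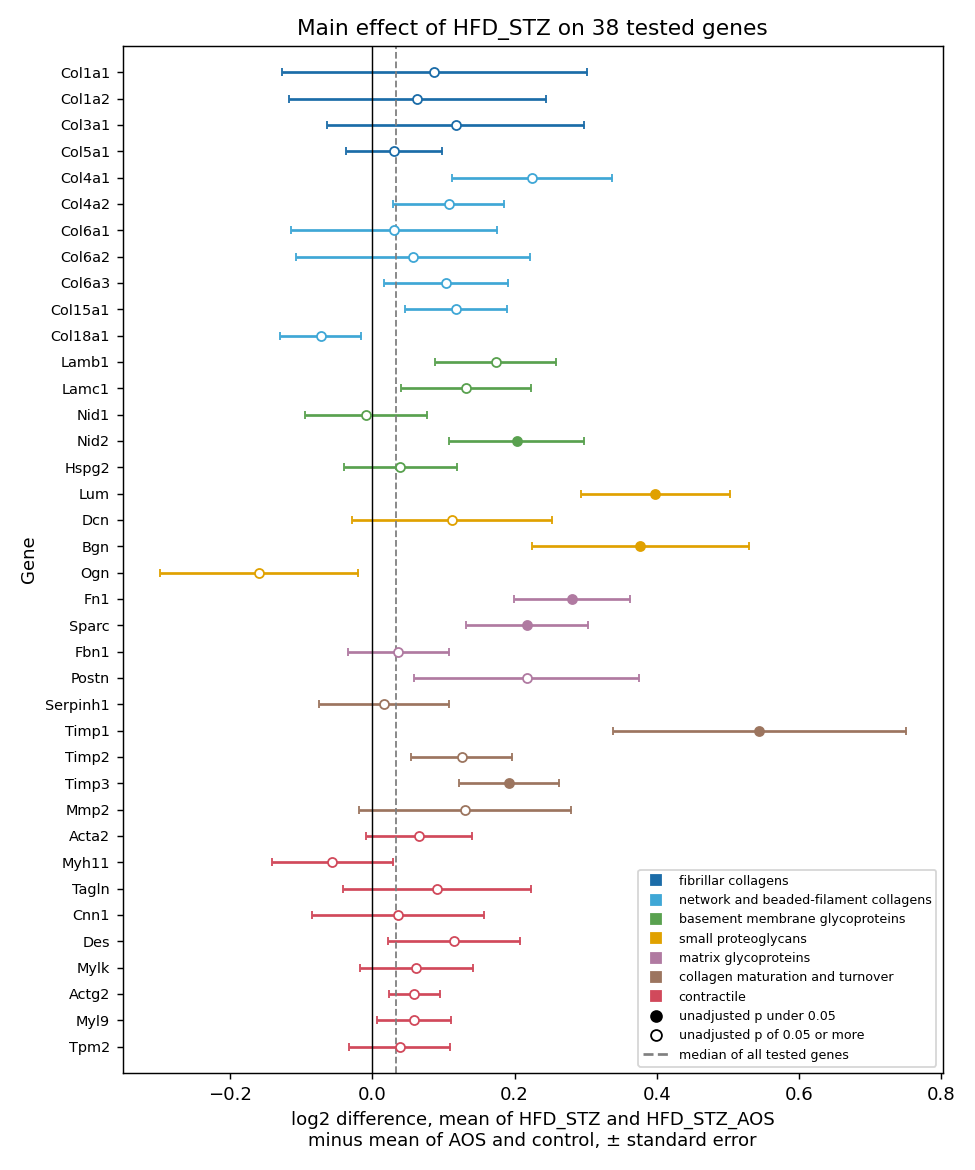
log2 difference (horizontal axis), the mean of HFD_STZ and HFD_STZ_AOS minus the mean of AOS and control, ± SE, for the 38 tested genes, grouped by role in colour. Filled points have an unadjusted p under 0.05; 34 of 38 points lie above 0, and the dashed line is the median of all tested genes (0.03).

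In HFD_STZ against control alone, limma called 0 of the 38 genes and 0% of all tested genes. Unadjusted p values under 0.05 were found for 2 of 38, against 8.3% of all tested genes. The median difference was 0.02, as over all genes, with 23 of 38 above 0. Without HFD_STZ replicate 1 it was 0.06 (30 of 38), and without HFD_STZ replicate 2 it was 0.0011 (19 of 38). Nid2, nidogen 2, measured 2.03, 1.88 and 2.83 RPKM in HFD_STZ and 1.24, 1.55 and 1.47 in control, without overlap, with a log2 difference of 0.41 ± 0.13 (adjusted p of 0.389). Col18a1, a basement membrane collagen and the source of endostatin, measured 3.21, 2.90 and 2.96 RPKM in HFD_STZ and 3.41, 3.53 and 3.72 in control, also without overlap, a difference of -0.18 ± 0.08 (0.583). Timp3 measured 9.30, 9.19 and 9.01 RPKM in HFD_STZ against 7.43, 8.20 and 8.21 in control, again apart, with 0.19 ± 0.10 (0.654). The 2 groups did not overlap for 9 of 38 genes, where 16.3% of all tested genes did not. Col18a1 was lower in HFD_STZ (1 of 38, against 4.53%), and Nid2, Timp1, Timp2, Timp3, Fn1, Bgn, Sparc and Col4a1 were higher (8 of 38, against 11.7%). The 8 Sertoli cell markers, all higher on average in HFD_STZ, summed to 590.2 to 604 RPKM in HFD_STZ and 522 to 583 in control, and their part in these values was not tested.

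AOS without the diet was set against control. The 38 matrix and contractile genes leaned lower in AOS: 30 of 38 differences were below 0, against 59.8% of all tested genes, with a median of -0.13 against -0.03. With the trend on gene length removed the median was -0.08, against -0.0048 over all genes, and 30 were again below 0. limma called 0 of the 38 genes and 0% of all tested genes, and 2 of 38 had an unadjusted p under 0.05 where 13.9% of all did. By role, the difference was below 0 for all 4 fibrillar collagens (median -0.26), 6 of 7 network and beaded-filament collagens (-0.18), all 4 matrix glycoproteins (-0.11) and 4 of 5 genes of collagen maturation and turnover (-0.21). It was below 0 for 3 of 4 small proteoglycans (-0.20), 3 of 5 basement membrane glycoproteins (-0.09) and 6 of 9 contractile genes (-0.07). The groups did not overlap for 12 of 38 genes, against 22.5% of all tested genes. Of these, Col1a2, Col3a1, Col18a1, Nid1, Dcn, Lum, Fn1, Timp1, Timp2 and Timp3 were lower in AOS (10 of 38, against 14.8%), and Nid2 and Serpinh1 higher (2 of 38, against 7.76%).

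Timp2, the inhibitor that also takes part in activating pro-Mmp2, measured 51.1, 58.3 and 50.4 RPKM in AOS and 59.5, 62.7 and 62.5 in control, without overlap, a difference of -0.21 ± 0.10 (adjusted p of 0.37 by limma). Nid2 went the other way, with 2.64, 2.07 and 1.82 RPKM in AOS and 1.24, 1.55 and 1.47 in control and 0.39 ± 0.13 (0.254). Col18a1 measured 3.03, 3.10 and 2.96 RPKM in AOS and 3.41, 3.53 and 3.72 in control, a difference of -0.18 ± 0.08 (0.352). For Nid2 and Col18a1, the HFD_STZ libraries also lay on the same side of control, and both comparisons share the control libraries. The 6 spermatid markers summed to 51986 to 53627 RPKM in AOS and 41201 to 47135 in control. Prm1, Prm2, Tnp1 and Tnp2 gave nearly all of these sums. The log2 difference was above 0 for 5 of the 6. Acrv1 measured 282, 301 and 264 RPKM in AOS and 289, 300 and 307 in control, and Acr overlapped as well. The 7 Leydig cell markers, all lower on average in AOS, summed to 2563 to 3489.8 RPKM in AOS and 3497 to 4013 in control, and the 4 blood cell markers to 89.0 to 147 RPKM in AOS and 141 to 174 in control. Their part in the values of the 38 genes was not tested.

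Over all 6 groups, AOS had the lowest group mean for 25 of the 38 tested genes, where it had the lowest for 26.8% of all tested genes. It had the highest mean for 0 of 38, against 9.31% of all. HFD_STZ_AOS had the highest mean for 15 of 38, against 23.6% of all, and control for 3 of 38, against 16.5%. These counts describe the order of means and carry no test.

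In HFD_STZ_AOS against HFD_STZ, which asks what AOS did on the diet, the medians of the 7 roles lay within -0.07 to 0.08. Differences were above 0 for 23 of 38 genes, where 47.7% of all tested genes were. By role these were 7 of 9 contractile genes (median 0.07), 6 of 7 network and beaded-filament collagens (0.04) and 3 of 4 fibrillar collagens (0.08). The rest were 2 of 4 small proteoglycans, 2 of 4 matrix glycoproteins, 2 of 5 genes of collagen maturation and turnover and 1 of 5 basement membrane glycoproteins. limma called 0 of the 38 genes and 0% of all tested genes, and 0 of 38 had an unadjusted p under 0.05 where 12.5% of all did. Myl9 was the 1 gene whose groups did not overlap, where 17.2% of all tested genes did not, with 41.9, 42.5 and 45.6 RPKM in HFD_STZ_AOS and 35.8, 41.0 and 39.9 in HFD_STZ. Its difference was 0.15 ± 0.07 (adjusted p of 0.4), followed by Actg2 with 262, 259 and 266 RPKM in HFD_STZ_AOS and 235, 236 and 262 in HFD_STZ and 0.11 ± 0.05 (0.413). The HFD_STZ_AOS libraries overlapped with HFD_STZ for Actg2 only through HFD_STZ replicate 3. Timp3 measured 7.02, 7.72 and 9.70 RPKM in HFD_STZ_AOS and 9.30, 9.19 and 9.01 in HFD_STZ, a difference of -0.16 ± 0.10 (0.517). The median over the 38 genes was 0.04. Without HFD_STZ_AOS replicate 3 it was -0.09, with 5 of 38 above 0, where 43.3% of all tested genes were.

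The transfers of microbiota were set against HFD_STZ. In HFD_STZ_AOS_FMT against HFD_STZ, limma called 0 of the 38 genes, against 0.0144% of all tested genes, and 0 of 38 had an unadjusted p under 0.05 where 14.5% of all did. The roles went both ways. Differences were below 0 for all 5 basement membrane glycoproteins (median -0.14), 4 of 5 genes of collagen maturation and turnover (-0.13), 3 of 4 matrix glycoproteins (-0.03) and 4 of 7 network and beaded-filament collagens (-0.04), where 56.3% of all tested genes were below 0. They were above 0 for 3 of 4 fibrillar collagens (0.17), 3 of 4 small proteoglycans (0.12) and 5 of 9 contractile genes (0.03). Timp3 was the 1 gene without overlap, where 19.4% of all tested genes had none, with 6.73, 8.96 and 8.57 RPKM in HFD_STZ_AOS_FMT and 9.30, 9.19 and 9.01 in HFD_STZ and -0.17 ± 0.10 (adjusted p of 0.439). Myl9 measured 41.7, 47.6 and 40.5 RPKM in HFD_STZ_AOS_FMT and 35.8, 41.0 and 39.9 in HFD_STZ, with 0.15 ± 0.07 (0.363), and Dcn 40.1, 56.9 and 57.4 RPKM in HFD_STZ_AOS_FMT and 34.0, 47.9 and 41.3 in HFD_STZ, with 0.31 ± 0.20 (0.478), both overlapping. The 5 adipocyte markers summed to 46.2 to 115 RPKM in HFD_STZ_AOS_FMT and 13.8 to 24.1 in HFD_STZ, and their part was not tested. The median over the 38 genes was -0.01, -0.11 without HFD_STZ_AOS_FMT replicate 2 and 0.06 without replicate 1.

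In HFD_STZ_control_FMT against HFD_STZ, limma called 0 of the 38 genes, against 0.00721% of all tested genes, and 1 of 38 had an unadjusted p under 0.05 where 16.2% of all did. That gene was Nid2, with 1.33, 1.81 and 1.39 RPKM in HFD_STZ_control_FMT and 2.03, 1.88 and 2.83 in HFD_STZ, without overlap, a difference of -0.36 ± 0.13 (adjusted p of 0.212). Timp2 measured 57.7, 55.7 and 57.8 RPKM in HFD_STZ_control_FMT and 62.8, 68.0 and 65.3 in HFD_STZ, with -0.19 ± 0.10 (0.357), and Timp3 7.74, 7.67 and 8.63 RPKM in HFD_STZ_control_FMT and 9.30, 9.19 and 9.01 in HFD_STZ, with -0.18 ± 0.10 (0.388), both lower in every library of HFD_STZ_control_FMT. The groups did not overlap for 5 of 38 genes, against 24% of all tested genes. Nid2, Timp2 and Timp3 were lower (3 of 38, against 16%), and Col18a1 and Col6a2 higher (2 of 38, against 8%). The adipocyte markers summed to 38.0 to 128 RPKM in HFD_STZ_control_FMT, and their part was not tested. The median over the 38 genes was 0.01, -0.07 without HFD_STZ_control_FMT replicate 3 and 0.06 without HFD_STZ replicate 2.

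HFD_STZ_AOS_FMT against HFD_STZ_control_FMT compares the microbiota given. limma called 0 of the 38 genes, against 0.0216% of all tested genes, and 0 of 38 had an unadjusted p under 0.05 where 4.58% of all did. Differences were below 0 for all 7 network and beaded-filament collagens (median -0.11) and 4 of 5 basement membrane glycoproteins (-0.01), where 46.1% of all tested genes were below 0. They were above 0 for all 4 small proteoglycans (0.05), 3 of 4 fibrillar collagens (0.04), 4 of 5 genes of collagen maturation and turnover (0.03), 2 of 4 matrix glycoproteins (0.02) and 6 of 9 contractile genes (0.05). Among the network collagens Col4a2 was the 1 gene without overlap, where 8.42% of all tested genes had none, with 2.95, 3.76 and 3.67 RPKM in HFD_STZ_AOS_FMT and 3.85, 3.90 and 4.43 in HFD_STZ_control_FMT and -0.19 ± 0.11 (adjusted p of 0.999). Nid2 measured 1.55, 1.89 and 2.40 RPKM in HFD_STZ_AOS_FMT and 1.33, 1.81 and 1.39 in HFD_STZ_control_FMT, and Des 1.59, 2.45 and 2.01 RPKM in HFD_STZ_AOS_FMT and 1.55, 1.43 and 1.90 in HFD_STZ_control_FMT, with differences of 0.23 ± 0.13 and 0.19 ± 0.13 and the same adjusted p. The 7 Leydig cell markers summed to 3636 to 5317 RPKM in HFD_STZ_AOS_FMT and 2746 to 4029 in HFD_STZ_control_FMT, and the 8 Sertoli cell markers to 577 to 661 RPKM in HFD_STZ_AOS_FMT and 532 to 581 in HFD_STZ_control_FMT. Their part was not tested. The median over the 38 genes was 0.01, -0.11 without HFD_STZ_AOS_FMT replicate 2 and 0.11 without replicate 1.

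**Figure D5:**
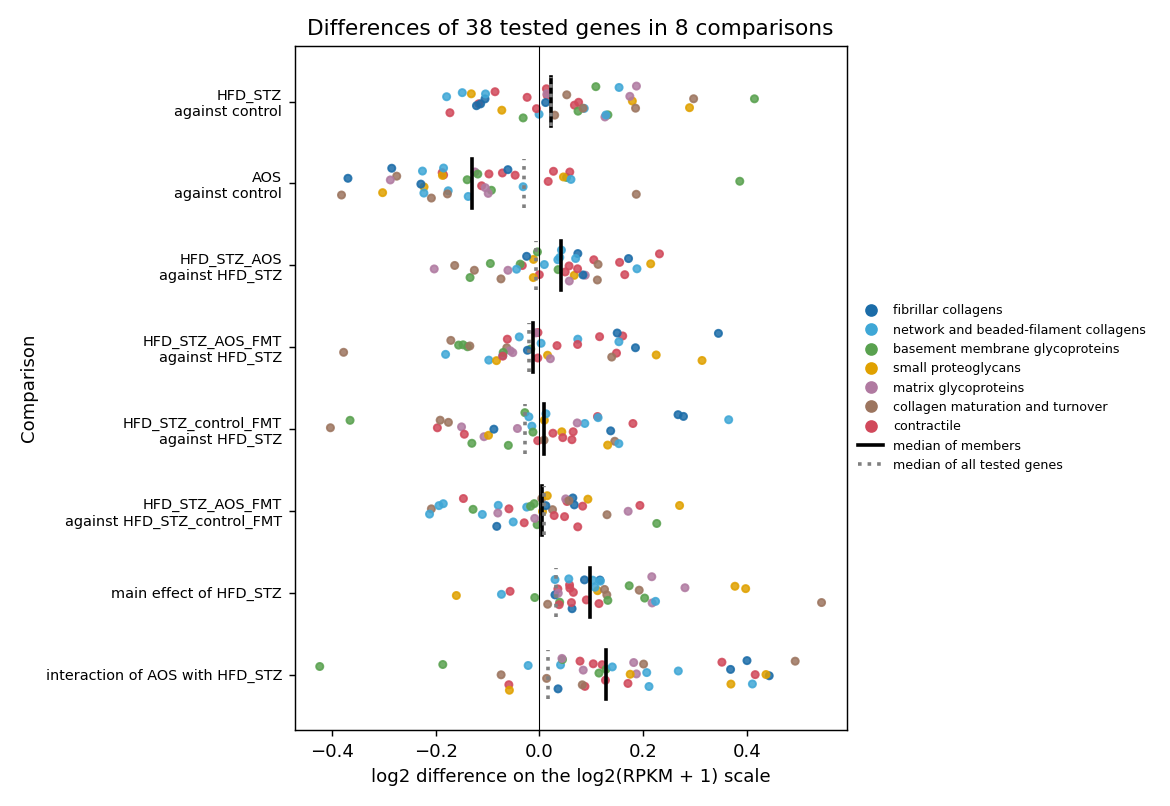
log2 differences (horizontal axis) of the 38 tested genes in 8 comparisons (rows), coloured by role; solid ticks are the median of the 38 genes and dotted ticks that of all tested genes. The medians part most in AOS against control (-0.13 against -0.03) and in the interaction (0.13 against 0.02).

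Whether AOS acted differently with the diet and STZ than without was tested by the interaction, the difference HFD_STZ_AOS minus HFD_STZ less the difference AOS minus control, in the same 12 libraries as the main effect. It was above 0 for 32 of 38 genes, against 56.4% of all tested genes, with a median of 0.13 against 0.02. Without HFD_STZ_AOS replicate 3 it was above 0 for 23 of 38 genes, where 52.1% of all tested genes were, with a median of 0.04. Without the 5 libraries high in Crisp1 it was above 0 for 20 of 38, where 50.9% of all were, with a median of 0.02. Those 5 include HFD_STZ_AOS replicate 3, so these are not separate cases. Without control replicate 3 alone it was above 0 for 27 of 38, with a median of 0.14. Without HFD_STZ_AOS replicate 1 these were 35 of 38 and 0.22. limma called 0 of the 38 genes and 0% of all tested genes, and 1 of 38 had an unadjusted p under 0.05 where 4.61% of all did. That gene, Nid2, had an interaction of -0.42 ± 0.19, followed by Lum at 0.44 ± 0.21 and Col18a1 at 0.21 ± 0.11, each with an adjusted p of 0.999. In the F test among the 6 groups limma again called 0 of the 38 genes, against 0.0432% of all tested genes, and 2 of 38 had an unadjusted p under 0.05 where 21.1% of all did. The smallest adjusted p were 0.149 for Lum, 0.166 for Nid2 and 0.256 for Fn1.

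Of the wider matrix and smooth muscle pathways, 7 lists of genes outside the 40 were read in the same fit. Of 10 tested other collagens 8 had differences above 0, as did 16 of 21 other laminins and matrix glycoproteins, 13 of 16 genes of collagen biosynthesis and crosslinking, 7 of 9 matrix proteases and inhibitors, 14 of 17 of TGF-beta signalling, 12 of 15 matrix receptors and 13 of 16 other smooth muscle genes, against 64.7% of all tested genes in this main effect of HFD_STZ. limma called 2.85% of all tested genes, and of these lists 1 of 10 other collagens, 1 of 16 of collagen biosynthesis and crosslinking, 1 of 17 of TGF-beta signalling and 1 of 16 of other smooth muscle genes. It called 0 of 21 other laminins and matrix glycoproteins, 0 of 9 matrix proteases and inhibitors and 0 of 15 matrix receptors, with unadjusted p values under 0.05 for 8, 0 and 6, where 18.8% of all tested genes had one. Medians ran from 0.05 for other collagens to 0.12 for laminins and matrix glycoproteins. In the other comparisons it called none of them, with unadjusted p values under 0.05 for 0 to 5 genes of a list, where 4.58% to 21.1% of all tested genes had one.

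The 3 called genes that were higher with the diet and STZ were Col14a1, Fkbp10 and Smad3. Col14a1, a collagen that associates with fibrils, rose to 2.39, 2.32 and 2.93 RPKM in HFD_STZ_AOS and 2.10, 2.09 and 2.50 in HFD_STZ, against 1.73, 1.77 and 1.69 in AOS and 1.67, 1.74 and 1.80 in control. The 6 and 6 libraries did not overlap, and the log2 difference was 0.31 ± 0.06 with an adjusted p of 0.0183. Without the 5 libraries high in Crisp1 its difference was 0.28, with an adjusted p of 0.116 by limma from fewer samples. Fkbp10, a prolyl isomerase of collagen folding, rose to 4.06, 4.48 and 5.58 RPKM in HFD_STZ_AOS and 3.53, 3.28 and 4.40 in HFD_STZ, against 2.44, 2.34 and 2.82 in AOS and 3.18, 3.32 and 3.71 in control, overlapping through control. Its difference was 0.39 ± 0.09 (0.0297). Smad3, a transcription factor of TGF-beta signalling, rose to 2.45, 2.67 and 3.88 RPKM in HFD_STZ_AOS and 3.18, 2.91 and 2.79 in HFD_STZ, against 1.85, 1.91 and 2.25 in AOS and 2.36, 2.23 and 2.05 in control, without overlap, with a difference of 0.35 ± 0.08 (0.0289).

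Synm fell. Synemin, an intermediate filament protein that binds desmin, was at 2.11, 2.29 and 1.48 RPKM in HFD_STZ_AOS and 2.69, 2.54 and 2.29 in HFD_STZ, against 3.06, 3.07 and 2.90 in AOS and 3.71, 3.12 and 2.65 in control, overlapping through control replicate 3, with a difference of -0.34 ± 0.08 (0.0393). Of 25 alternative settings, Col14a1 passed the threshold in 24, Fkbp10 in 16, Smad3 in 16 and Synm in 13. The calls of Fkbp10, Smad3 and Synm were each lost without replicate 1 or 3 of HFD_STZ, replicate 1 or 2 of AOS, or replicate 1 or 2 of control, with adjusted p of 0.0502 to 0.0969 by limma. Single other libraries also ended a call, HFD_STZ_AOS replicate 3 for Fkbp10 and Synm (0.0779 and 0.0962), control replicate 3 for Smad3 (0.0620), and HFD_STZ replicate 2 and AOS replicate 3 for Synm (0.0586 and 0.0774). Leaving out the 5 libraries high in Crisp1 ended all 4 calls, with differences of 0.36 for Fkbp10, 0.26 for Smad3 and -0.33 for Synm and adjusted p of 0.0875, 0.139 and 0.0857 by limma. In the transfer groups, Col14a1 was at 1.69, 2.13 and 1.72 RPKM in HFD_STZ_AOS_FMT and 1.83, 1.83 and 1.94 in HFD_STZ_control_FMT, and Smad3 at 1.99, 2.34 and 2.01 in HFD_STZ_AOS_FMT and 1.92, 2.14 and 1.86 in HFD_STZ_control_FMT, values that were not tested against those of AOS and control.

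Of the remaining lists, the genes with the smallest p did not pass. Lama4, a laminin chain of vessels and muscle, had 0.28 ± 0.08 (adjusted p of 0.0658) and Fbn2, fibrillin 2, -0.19 ± 0.06 (0.0816) in the main effect. Mmp14, a membrane-bound metalloproteinase, had -0.21 ± 0.09 in HFD_STZ_control_FMT against HFD_STZ (0.27). Plat, tissue plasminogen activator, had 0.20 ± 0.09 in HFD_STZ_AOS_FMT against HFD_STZ_control_FMT (0.999). Sdc3, the heparan sulfate proteoglycan syndecan 3, had 0.25 ± 0.05 in AOS against control (0.161) and -0.27 ± 0.08 in the interaction (0.999).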

How the data were processed

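Testis RNA of 18 libraries was analysed from 1 table of gene levels. The authors deposited the levels as RPKM, reads scaled to gene length and library size, as far as the values show; the table does not name its unit, and reads cannot be told from fragments. For the alignment, the submitters' processing notes list Bowtie version 0.12.2 with build mm10, while the counter, the annotation and strand are not given in the sources used here. Of 20985 rows, 6 with a repeated symbol were left out.

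Group and replicate of each library came from the labels. Levels were set to log2(RPKM + 1), a pseudocount of 1, and genes at 1 RPKM or more in at least 3 libraries, 13874 in all, were tested. limma 3.58.1 in R 4.3.3 fitted 6 group means to all 18 libraries with a variance trend, two-sided, with Benjamini-Hochberg adjustment over all tested genes and a threshold of 0.05; the fit had 12 residual and 3.71 prior degrees of freedom. The fit was also run on simulated data, with noise drawn separately for each gene and library. Those data hold no shift shared by many genes of a library, so they do not test the fit under such shifts. The 40 genes, their roles, the 7 pathway lists and the marker lists were chosen with earlier results of these data known. Given in full were the 2 genes with the highest mean in each role and, per comparison, the genes past the threshold or else the 3 with the smallest p; of a pathway list, the genes past it or else the 2 with the smallest p. Single values such as the range of Timp1 were singled out after they were seen. Alternatives were median-ratio scaling, a pseudocount of 0.1, testing of all genes above 0, only the groups compared, the replicate number as a block, removal of a trend on transcript length (lowess span 0.3, GENCODE vM21), leaving out the 5 libraries high in Crisp1, and leaving out each library in turn. Depth is not stated for the libraries, so no counting intervals are given.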

Additional observations from a re-analysis of the deposited data

How the results depend on the processing

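Of 1099 values recomputed under alternatives, 1062 kept their side of the threshold or stayed within the spread between libraries, and no called gene changed sign. That spread was 0.14 on the log2 scale, larger in size than every median as reported, so a median could change sign and still count as kept. Leaving out a library of a group outside a comparison does not change the log2 difference of that comparison. Much of this agreement was therefore set in advance. Medians of the 38 genes that lay near 0 did change sign: in HFD_STZ_AOS against HFD_STZ it was 0.04 as reported and -0.09 without HFD_STZ_AOS replicate 3, in HFD_STZ_AOS_FMT against HFD_STZ -0.01 and 0.02 with the length trend removed, in HFD_STZ_control_FMT against HFD_STZ 0.01 and -0.09 without the libraries high in Crisp1, and in HFD_STZ_AOS_FMT against HFD_STZ_control_FMT 0.01 and -0.11 without HFD_STZ_AOS_FMT replicate 2. In HFD_STZ against control it was 0.02 and -0.0018 with the length trend removed. In the main effect of HFD_STZ the number of the 40 genes past the threshold was 0 as reported and 1 with a pseudocount of 0.1, where Lum had a log2 difference of 0.54 and an adjusted p of 0.0466 by limma. Leaving out single libraries gave 0 to 1, and in the other comparisons the number was 0 under each alternative run. The cause was not tested. Over all genes, the main effect called 396, of which 333 were higher, against 268 with median-ratio scaling (163 higher), 315 with the length trend removed (173 higher), 205 without the filter, 133 with only the groups compared, 34 without the libraries high in Crisp1, and 111 to 694 without single libraries. Leaving out the libraries high in Crisp1 left 1 in HFD_STZ_control_FMT, assumed to vary like the other groups. With the replicate number as a block, 0 of the 40 genes and 388 genes in all were called; same-numbered libraries correlated above 0.1 in 11 of 45 pairs (median 0.000513), so the numbers were not taken to pair the samples. The depth of the libraries is not stated, and its part in the spread of genes near 1 RPKM was not tested.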
